A study of Mus musculus with 6 samples.

Results

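The genes described here are 10 central genes of epithelial-mesenchymal transition, the switch in which epithelial cells loosen their junctions and take on features of migratory mesenchymal cells: the cadherin genes Cdh1, Cdh3 and Cdh2, the intermediate filament gene Vim, the matrix gene Fn1 and the transcription factor genes Zeb1, Zeb2, Snai1, Snai2 and Twist1. They were chosen by name, and every probe that the platform annotation gives to any of them was taken, however dim. That gave 13 probes for 8 of the 10 genes, among 25697 probes and 16561 named genes on the array. No probe carried the name Fn1 or Snai2 in the annotation used here, so these 2 genes were not analysed here.

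As background, E-cadherin, the product of Cdh1, holds epithelial cells together by binding its like on the neighbouring cell and anchoring to actin through catenins. The SNAIL, ZEB and TWIST factors bind short DNA motifs called E-boxes and repress Cdh1 and other epithelial genes, while vimentin, fibronectin and N-cadherin (Cdh2) are the classical mesenchymal products that appear as the programme proceeds. In mammary epithelium, P-cadherin (Cdh3) is typical of the basal and myoepithelial layer and E-cadherin of luminal cells.

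Total RNA of TUBO cells, which grew out of a breast tumour of a BALB-neuT female, a mouse that develops such tumours from a transgene, was measured on 6 single-colour Illumina bead arrays, 3 titled TMA and 3 titled TDA, to ask which profile goes with mammosphere medium. By title, TMA cells grew attached in a serum-free DMEM-F12 mix that held bFGF and EGF at 20 ng/ml each, with 5 μg/ml insulin and 0.4% albumin, and TDA cells grew attached in DMEM to which 20% fetal calf serum was added. In the sample records, the source names give each group the other medium, so groups are named here by title and which medium a higher value goes with is not settled. All cells came from this 1 line without further treatment, and no label says whether the 3 samples of a group were separate cultures. The p-values thus set each difference against only the scatter among these samples, and that scatter may be technical.

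All 6 arrays sat on 1 chip, with TMA in its first 3 positions and TDA in its last 3, so the groups and the chip positions cannot be told apart. Mean raw signal per probe lay between 615 and 635 for the TMA arrays, whereas TDA1 had 845, TDA2 582 and TDA3 560. Values below are log2 of the background-corrected, quantile-normalized signal, and each difference is TMA minus TDA. Probes with a mean above the median of all probes were tested in limma, which called 387 of 12848, or 3.01%, at an adjusted p of 0.05, with 1.53% higher and 1.49% lower on TMA arrays. A probe's brightness depends on the probe as well as on the transcript, and no detection p-values came with the signals, so a percentile below ranks a probe among all probes and is no measure of transcript number.

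The TUBO arrays read as epithelial by their markers. Of 7 epithelial defining genes with a probe, 6 lay above the median of all probes, with the keratin genes Krt8 and Krt18 at the 99.5 and 99.4 percentile and the epithelial splicing regulator Esrp1 at 98.8. Cdh1, a member described below, is on this list and among the 6. The exception was Krt19, whose probe stood at the 3.58 percentile, and no probe was named for Epcam here. Of 12 fibroblast, 7 myoepithelial, 8 endothelial and 7 leukocyte markers with a probe, 2 of each lay above that median. The summed raw signal of the fibroblast list was 3183, 3076 and 3235 on TMA1, TMA2 and TMA3, against 3375, 3064 and 3086 on TDA1, TDA2 and TDA3. That of the leukocyte list was 22749, 10124 and 13566 on the TMA arrays, against 33623, 18832 and 18868 on the TDA arrays in the same order. Nearly all of that sum was Cd14, a monocyte receptor gene at the 99.7 percentile: without it the other 6 genes summed to 1688, 1692 and 1521 on the TMA arrays, against 1746, 1554 and 1715 on the TDA arrays. All these sums are of raw signals with background left in, and the median probe read from 270.6 on TDA2 to 309.6 on TDA1. Sums made up mostly of dim probes therefore cannot tell how much RNA of such cells was present. The part of the leukocyte list in the values below was not tested.

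None of the 13 probes passed the test between TMA and TDA arrays, which does not show that their levels were equal. Of the 6 tested probes, which stand for 5 genes, limma called 0 at an adjusted p of 0.05, against the 3.01% of all tested probes, and 2 had an unadjusted p under 0.05, against 18.5% of all tested probes. These 2 were the Cdh1 probe, higher on TMA arrays, and the brighter Zeb2 probe, lower on TMA arrays. In the fit over all 25697 probes, which takes in the 7 dim ones, limma called 0 of 13, against 1.44% of all probes, and 2 of the 13 stayed under an unadjusted p of 0.05, against 11.8% of all probes. The median difference was 0.03 over the 6 tested probes and 0.00 over all tested probes. Values of TMA and TDA arrays did not overlap for 3 of the 13 probes, against 16.3% of all probes, and for 2 of the 6 tested probes, against 23% of all tested probes.

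**Figure D1:**
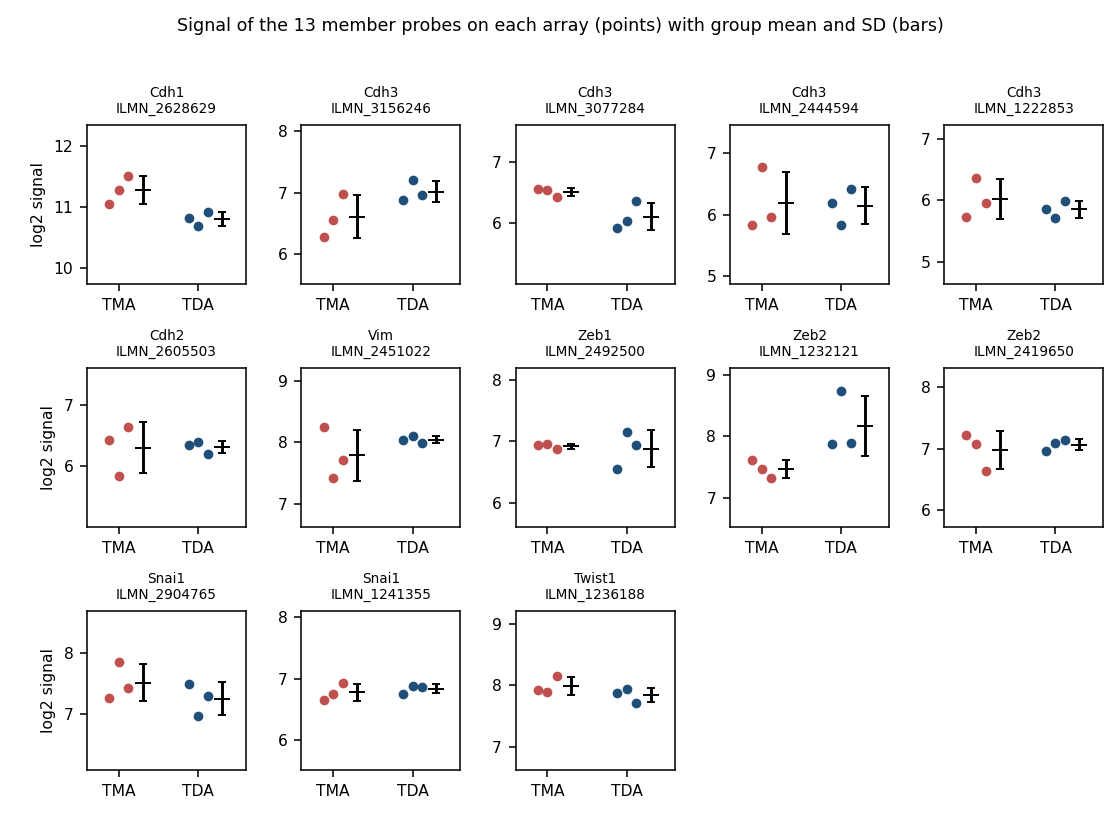
Log2 signal (vertical axis, the same span in every panel) of the 13 probes on the 3 TMA arrays (left, red) and 3 TDA arrays (right, blue), with bars for group mean and SD. The groups part for Cdh1, for Cdh3 probe ILMN_3077284 and for Zeb2 probe ILMN_1232121, and overlap in the other 10 panels.

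Cdh1, the E-cadherin gene, had 1 probe, ILMN_2628629, at the 96.7 percentile of all probes. It read 11.05, 11.28 and 11.51 on TMA1, TMA2 and TMA3, against 10.82, 10.68 and 10.91 on TDA1, TDA2 and TDA3. All TMA arrays thus lay above all TDA arrays, with a gap between TMA1 and TDA3 that was smaller than the range within either group. Means were 11.28 ± 0.23 on TMA arrays and 10.81 ± 0.12 on TDA arrays (log2, SD, n = 3 each), a difference of 0.47 with a 95% interval from 0.03 to 0.91 and a limma adjusted p of 0.231. The interval, which is not adjusted for the number of probes, runs from a 1.02-fold to a 1.88-fold higher signal.

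The separation of the Cdh1 values depended on scaling between arrays. Before normalization the signals were 2277.8, 2474.4 and 3055.4 on the TMA arrays, against 3007.5, 1609.8 and 1585.0 on the TDA arrays, with TDA1, the array with the highest mean signal, inside the TMA range. Quantile normalization sets a value by its rank within the array, and by that rank Cdh1 stood at the 96.5, 97.1 and 97.6 percentile on TMA1, TMA2 and TMA3 and at the 95.8, 95.3 and 96.1 percentile on TDA1, TDA2 and TDA3, which is the same separation in another unit. In the authors' normalized table the difference was 0.38, and the groups did not overlap there either.

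Cdh3, the P-cadherin gene, had 4 probes, annotated to a pair of transcript records, and all 4 were dim. Probe ILMN_3156246 lay at the 34.5 percentile and the other 3 at the 3.40, 1.19 and 0.117 percentile. Their differences did not share a sign: they were -0.41 for ILMN_3156246, 0.40 for ILMN_3077284, 0.04 for ILMN_2444594 and 0.17 for ILMN_1222853, with adjusted p between 0.515 and 0.976 in the limma fit over all probes. Both probes of the same transcript record, ILMN_3156246 and ILMN_3077284, thus had differences of opposite sign, neither past the threshold.

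ILMN_3077284 read 6.55, 6.55 and 6.43 on TMA1, TMA2 and TMA3, against 5.93, 6.04 and 6.36 on TDA1, TDA2 and TDA3, with every TMA array above every TDA array and a gap of under 0.1 between TMA3 and TDA3. Its raw signals overlapped, with 236.7 on TMA3 and 237.7 on TDA3. ILMN_3156246 read 6.29, 6.56 and 6.98 on the TMA arrays, against 6.89, 7.21 and 6.96 on the TDA arrays, which overlap at TMA3. The basal and myoepithelial keratin genes Krt5 and Krt14, partners of Cdh3 in that layer, stood at the 36.3 and 66.1 percentile and differed by 0.03 and -0.52, neither past the threshold. For Krt14, TDA2 stood apart at 8.62, with 7.41 on TDA1 and 7.15 on TDA3, and the difference was -0.07 without it.

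Cdh2, the N-cadherin gene whose gain at the expense of E-cadherin is a mark of the mesenchymal state, was dim on every array. Its probe ILMN_2605503 stood at the 3.28 percentile by its mean, and within single arrays between the 0.743 percentile on TMA2 and the 21.6 percentile on TMA3. It read 6.42, 5.84 and 6.64 on the TMA arrays, against 6.34, 6.39 and 6.20 on the TDA arrays, so TMA2 and TMA3 lay on either side of all TDA arrays. The difference was -0.01, with a 95% interval from -0.51 to 0.49.

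Vim, the gene of the intermediate filament protein vimentin, had 1 probe, ILMN_2451022, at the 73.5 percentile. It read 8.24, 7.42 and 7.71 on TMA1, TMA2 and TMA3, against 8.03, 8.11 and 7.99 on TDA1, TDA2 and TDA3. The TDA arrays lay close together, inside the wide range set by TMA1 above and TMA2 below. Means were 7.79 ± 0.42 on TMA arrays and 8.04 ± 0.06 on TDA arrays (log2, SD, n = 3 each), and the difference of -0.25 had a 95% interval from -0.76 to 0.25 and a limma adjusted p of 0.628. Without TMA1 it was -0.48 (adjusted p = 0.242), and without TMA2 it was -0.07.

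**Figure D2:**
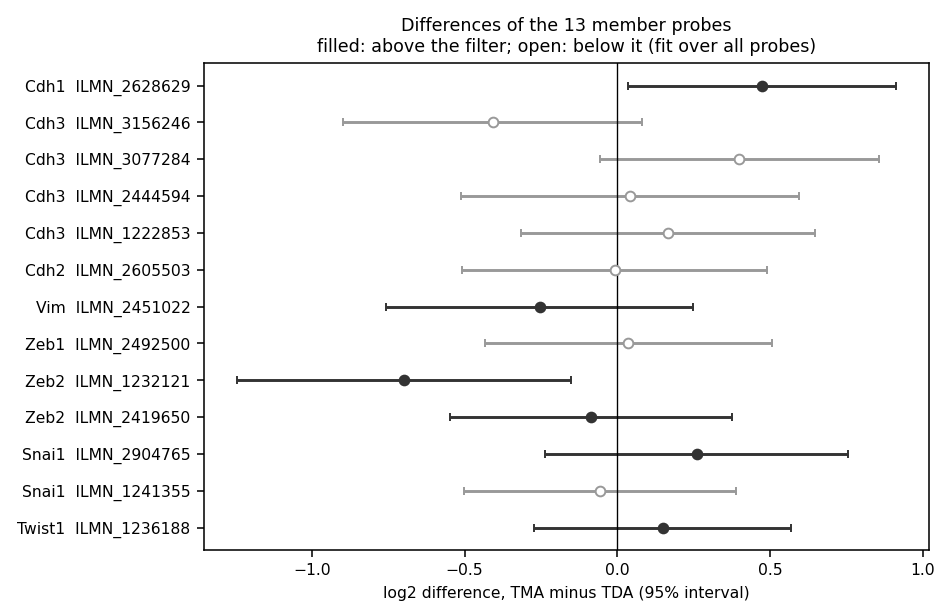
Log2 differences (horizontal axis, TMA minus TDA) of the 13 probes with 95% intervals; filled points passed the filter on dim probes and open points did not. The intervals of Cdh1, from 0.03 to 0.91, and of Zeb2 probe ILMN_1232121, from -1.24 to -0.15, leave out 0, and the other 11 include it.

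Among the repressors, Zeb2, the gene of a zinc finger and homeodomain factor that silences Cdh1, showed the widest difference of the 13 probes, but on only 1 of its 2 probes. ILMN_1232121, at the 72.1 percentile, read 7.62, 7.46 and 7.32 on TMA1, TMA2 and TMA3, against 7.88, 8.74 and 7.89 on TDA1, TDA2 and TDA3. Every TMA array lay below every TDA array, and TDA2 stood well above the other two TDA arrays. Means were 7.47 ± 0.15 on TMA arrays and 8.17 ± 0.49 on TDA arrays (log2, SD, n = 3 each), a difference of -0.70 with a 95% interval from -1.24 to -0.15 and a limma adjusted p of 0.153. Its raw signals also did not overlap, at 347.9, 316.2 and 312.2 on the TMA arrays, against 468.1, 518.5 and 360.6 on the TDA arrays. Without TDA2 the difference was -0.41 (limma adjusted p = 0.307).

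The other Zeb2 probe, ILMN_2419650, is annotated to the same transcript record and stood at the 50.5 percentile, just above the filter. It read 7.23, 7.08 and 6.63 on the TMA arrays, against 6.97, 7.09 and 7.14 on the TDA arrays. These groups overlap, and TDA2, the highest array on the brighter probe, lay between TDA1 and TDA3 here. The difference was -0.09, with a 95% interval from -0.55 to 0.38 and a limma adjusted p of 0.885. That interval does not reach the brighter probe's difference of -0.70.

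Zeb1, the paralog of Zeb2 with the same kind of repressor activity, had 1 dim probe, ILMN_2492500, at the 41.8 percentile. It read 6.93, 6.95 and 6.87 on the TMA arrays, against 6.55, 7.15 and 6.94 on the TDA arrays, with the TMA values inside the TDA range. The difference was 0.04, with a 95% interval from -0.43 to 0.51.

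Snai1, the gene of the zinc finger repressor SNAIL, is shown with the stretch before its RefSeq start (GRCm38.p6) because SNAIL proteins bind the E-box CACCTG, and this stretch holds 1 copy, in capitals, 126 bases before the start. Vim is shown beside it as a mesenchymal gene whose stretch holds no CANNTG, the general E-box that includes CACCTG. Snai1 lies at chr2:167537945-167538194 and Vim at chr2:13574061-13574310, both on the plus strand, each line giving 250 bases.
Snai1: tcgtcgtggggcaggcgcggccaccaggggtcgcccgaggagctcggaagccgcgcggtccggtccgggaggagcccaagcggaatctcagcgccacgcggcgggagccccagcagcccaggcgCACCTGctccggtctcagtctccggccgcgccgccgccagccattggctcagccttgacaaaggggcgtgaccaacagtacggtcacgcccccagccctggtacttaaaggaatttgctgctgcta
Vim: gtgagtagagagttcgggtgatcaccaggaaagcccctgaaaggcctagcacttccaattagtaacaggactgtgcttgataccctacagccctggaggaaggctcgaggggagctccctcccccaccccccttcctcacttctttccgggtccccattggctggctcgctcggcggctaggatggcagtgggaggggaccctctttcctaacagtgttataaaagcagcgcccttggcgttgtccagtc
The search covered 4 of the listed genes, Snai1, Vim, Twist1 and Zeb2, with 7 windows in all. Among these, the Snai1 window was the only 1 with CACCTG or CANNTG. The other listed genes were not searched, which does not mean that each lacks an entry. Searched on both strands, at least 1 CACCTG occurs in 17.2% and at least 1 CANNTG in 66.2% of all 32851 RefSeq windows. A CANNTG match is thus common in such stretches, and a CACCTG match is less common but not rare. A match describes letters and is not evidence of binding.

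Snai1 had 2 probes annotated to the same transcript record. ILMN_2904765, at the 64.4 percentile, read 7.27, 7.86 and 7.42 on TMA1, TMA2 and TMA3, against 7.50, 6.97 and 7.31 on TDA1, TDA2 and TDA3. The groups overlapped, with TMA2 highest and TDA2 lowest, and the difference was 0.26 with a 95% interval from -0.24 to 0.75 and a limma adjusted p of 0.615. It was 0.09 without TMA2 and 0.12 without TDA2. ILMN_1241355, below the filter at the 33.9 percentile, read between 6.66 and 6.92 on the TMA arrays and between 6.75 and 6.88 on the TDA arrays. Its difference was -0.06, with a 95% interval from -0.50 to 0.39.

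Twist1, the gene of a basic helix-loop-helix factor that binds E-boxes with partner proteins, had 1 probe, ILMN_1236188, at the 73.4 percentile. It read 7.93, 7.89 and 8.15 on the TMA arrays, against 7.87, 7.94 and 7.72 on the TDA arrays, so the groups overlapped. Means were 7.99 ± 0.14 on TMA arrays and 7.84 ± 0.11 on TDA arrays (log2, SD, n = 3 each). The difference of 0.15 had a 95% interval from -0.27 to 0.57, or 0.83-fold to 1.48-fold, and a limma adjusted p of 0.758. It was 0.07 without TMA3 and 0.09 without TDA3.

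**Figure D3:**
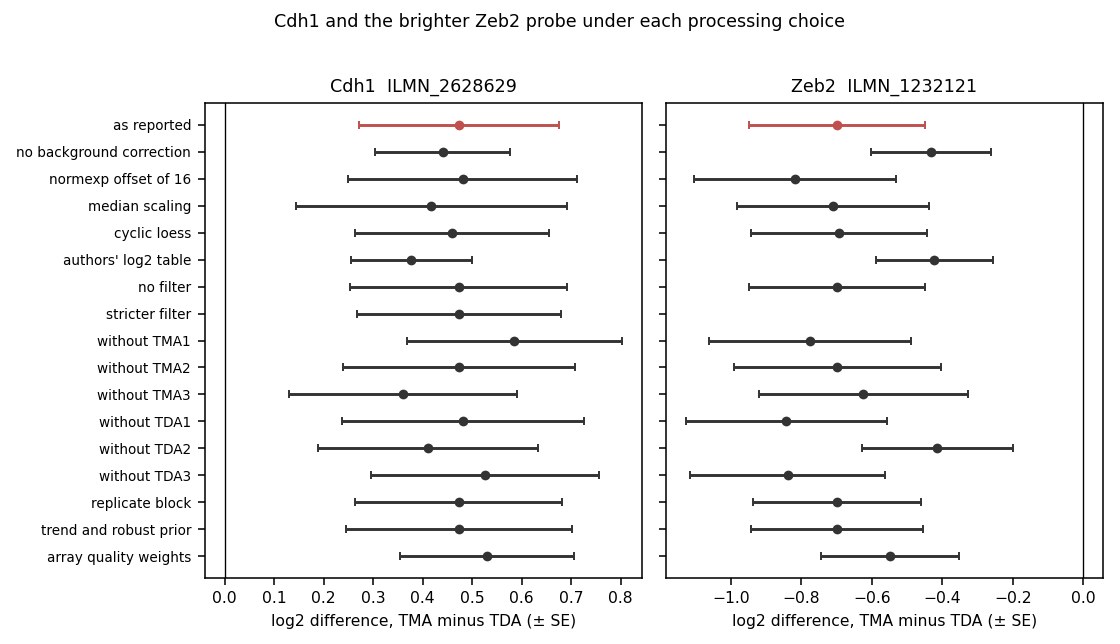
Log2 difference, TMA minus TDA, of Cdh1 (left) and of Zeb2 probe ILMN_1232121 (right) under the reported processing (red) and each other choice, with bars for 1 standard error. Cdh1 stayed between 0.36 and 0.59 and the Zeb2 probe between -0.84 and -0.41 over the choices drawn. The stricter filter left the Zeb2 probe untested.

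These 2 differences kept their sign under every processing choice tried, 16 for Cdh1 and 15 for Zeb2 probe ILMN_1232121, and neither passed an adjusted p of 0.05 under any of them. The lowest limma adjusted p was 0.0551 for Cdh1 and 0.0718 for the Zeb2 probe, both with array quality weights, and the highest were 0.591 and 0.414.

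Across the 6 arrays, the genes whose pattern was most like that of Cdh1 were Ephb4, an ephrin receptor gene (r = 0.999), the muscle-type enolase gene Eno3 (r = 0.996) and Fkbp11 (r = 0.995), out of 8959 tested genes. For the brighter Zeb2 probe they were Tead4, a partner of YAP (r = 0.999), Rnaset2b (r = 0.995) and Cyb5r1 (r = 0.994). For Vim they were Wls, Txnrd2 and Srprb (r = 0.987, 0.983 and 0.980), for Snai1 Il15, Ptges and Rdh7 (r = 0.987, 0.984 and 0.984) and for Twist1 Ifngr1, Lipe and Igsf9 (r = 0.987, 0.972 and 0.972). With only 6 arrays, 241 genes had r over 0.9 with Cdh1, 261 with Zeb2, 121 with Vim, 90 with Snai1 and 57 with Twist1. All these r come from the same 6 arrays and describe them only. Of these 15 genes, 0 passed the limma threshold, with adjusted p between 0.123 and 0.867.

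Some genes of cell adhesion beside the cadherins passed the test. Counting 1 probe per gene, limma called 307 of 8964 tested genes, or 3.42%. At an unadjusted p under 0.05, 901 of the 8964 were higher and 829 lower on TMA arrays. In the cadherin-catenin adhesion list, 2 of 7 tested genes rose on TMA arrays and 0 fell, with a median difference of 0.20 against 0.00 over all tested genes. Ctnnal1, an alpha-catenin relative, read 9.96, 9.53 and 10.13 on TMA1, TMA2 and TMA3, against 8.81, 8.54 and 8.51 on TDA1, TDA2 and TDA3. Every TMA array exceeded every TDA array, and Ctnnal1 rose by 1.25 ± 0.22 (log2, standard error, limma adjusted p = 0.0134). Nectin2, an adhesion receptor of adherens junctions, read 11.02, 11.52 and 11.42 on the TMA arrays, against 10.31, 10.24 and 10.50 on the TDA arrays, and rose by 0.97 ± 0.21 (adjusted p = 0.0320), with its other probes at 0.45 and 1.13.

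The core partners of E-cadherin in that list did not pass: alpha-catenin Ctnna1 differed by 0.18 and beta-catenin Ctnnb1 by 0.23, with limma adjusted p of 0.719 and 0.631, and 0.05 and 0.11 with median scaling. The other Ctnnb1 probes differed by -0.30 and 0.21. The Ctnnal1 call was lost without TMA3, TDA1 or TDA3 and with median scaling, and the Nectin2 call without TMA2, TMA3, TDA1 or TDA3, with an offset of 16 and with median scaling.

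Of 6 tested genes among other cadherins and desmosomal cadherins, limma called 0, and the median difference was 0.08. An unadjusted p under 0.05 was reached by 1 of the 6, against 901 higher and 829 lower of 8964 tested genes. Pcdh1, a protocadherin of epithelia, differed by 0.51 (adjusted p = 0.212) and the kidney-type cadherin Cdh16 by 0.15 (adjusted p = 0.765). Pcdh1 passed with array quality weights alone (adjusted p = 0.0268), and Cdh16 was 0.05 without TMA1 and 0.03 without TDA1. The other, dimmer Pcdh1 probe differed by 0.26, with overlapping groups. The endothelial cadherin Cdh5 and the mesenchymal cadherin Cdh11 were dim, at the 12.5 and 21.9 percentile.

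Most epithelial membrane and keratin genes had positive differences, and 1 passed the test. Of 12 tested members of that list, 1 rose and 0 fell, against 3.42% of all tested genes called. At an unadjusted p under 0.05, 5 of the 12 were higher and 0 lower on TMA arrays. Over all 8964 tested genes, 901 were higher and 829 lower. A positive difference was found for 11 of the 12, with a median of 0.26 against 0.00 over all tested genes. Of all tested genes, 4424 were positive and 4540 negative. The gene that rose was Spint1, an inhibitor of epithelial surface proteases, at 10.28 ± 0.58 on TMA arrays and 9.15 ± 0.06 on TDA arrays (log2, SD, n = 3 each, limma adjusted p = 0.0436). Its call was lost without TMA2, TMA3, TDA1 or TDA3 and under 5 other choices. The claudin gene Cldn4, named after its values were seen, had the list's largest difference, 1.90, but overlapping groups, at 12.16, 14.58 and 13.73 on the TMA arrays, against 11.18, 12.31 and 11.28 on the TDA arrays (adjusted p = 0.0576). In the fit over all probes it passed (adjusted p = 0.0338), as it did without TMA1 or TDA2, with the replicate block and with array quality weights.

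Of 11 tested transcription and splicing factors of the epithelial state, limma called 0, and the median difference was 0.02. An unadjusted p under 0.05 was reached by 1 of the 11, against 901 higher and 829 lower of 8964 tested genes. Elf3, an epithelial ETS factor, differed by 0.75 on its brightest probe (adjusted p = 0.252) and by 0.36 and 0.23 on its other probes, whose groups overlapped. On the brightest probe TDA2 read 7.63, against 8.97 on TDA1 and 9.11 on TDA3, and without TDA2 the difference was 0.28. Ovol1, a zinc finger factor that opposes mesenchymal transition, differed by -0.41 (adjusted p = 0.270), and by -0.19 without background correction. Grhl2, an activator of Cdh1, read 10.07 ± 0.12 on TMA arrays and 9.62 ± 0.29 on TDA arrays (log2, SD, n = 3 each), a difference of 0.45 with a limma adjusted p of 0.277, which was 0.23 with array quality weights.

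Of 7 other transcription factor genes tied to the transition, 0 rose and 1 fell (median difference -0.26), against 3.42% of all tested genes called. Id2, the gene of a helix-loop-helix protein that keeps its partners from binding DNA, read 9.20, 8.08 and 8.28 on TMA1, TMA2 and TMA3, against 9.85, 9.63 and 10.18 on TDA1, TDA2 and TDA3. All TMA arrays lay below all TDA arrays, with TMA1 nearest to them, and Id2 fell by 1.37 on the log2 scale (standard error 0.29, limma adjusted p = 0.0278). Its other, dimmer probe differed by -0.13. The Id2 call was lost without TMA2, TMA3, TDA1 or TDA3, without background correction, with median scaling and in the authors' table.

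Of 13 tested mesenchymal and invasion genes, limma called 0, and the median difference was 0.00. Against 901 higher and 829 lower of 8964 tested genes, 2 of the 13 genes had an unadjusted p under 0.05. These were the matrix protease genes Mmp2, with a difference of -0.94 (adjusted p = 0.154), and Mmp14, with 0.49 (adjusted p = 0.224). The Mmp2 groups overlapped, and the difference was -0.56 without TMA2 (adjusted p = 0.492) and -1.39 without TMA1 (adjusted p = 0.0140). Mmp2 also passed with array quality weights (adjusted p = 0.00978). Of 10 tested genes for corepressors and turnover of SNAIL and ZEB proteins, limma called 0, with a median of 0.10. An unadjusted p under 0.05 was reached by 1 of the 10, against 901 higher and 829 lower of 8964 tested genes. The casein kinase gene Csnk1e differed by 0.55 (adjusted p = 0.212), and by 0.34 without TMA2. Gsk3b, the kinase that marks SNAIL for degradation, differed by 0.36 (adjusted p = 0.442), and by 0.55 without TMA1.

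TGF-beta signals induce the transition in many epithelia. Of 11 tested TGF-beta ligands, receptors and SMADs, 1 fell and 0 rose (median 0.07), against 3.42% of all tested genes called. At an unadjusted p under 0.05, 4 were higher and 2 lower on TMA arrays, against 901 higher and 829 lower of 8964 tested genes. Tgfb1, a TGF-beta ligand gene, read 7.20, 6.62 and 6.95 on the TMA arrays, against 7.78, 8.00 and 7.68 on the TDA arrays, and fell by 0.90 on the log2 scale (limma adjusted p = 0.0450), a call lost without each of TMA2, TMA3, TDA1, TDA2 and TDA3 and under 5 other choices. Its size depended on the processing: the authors' table gave -0.46, and signals with no background correction gave -0.47. The 4 genes higher at an unadjusted p under 0.05, named after their values were seen, were the ligand genes Tgfb3, with a difference of 1.11 (adjusted p = 0.0580), and Tgfb2, with 0.73 (adjusted p = 0.0669), and the receptor genes Tgfbr3, with 0.92 (adjusted p = 0.124), and Tgfbr2, with 0.63 (adjusted p = 0.218). Without TDA2 the receptor differences were 0.56 for Tgfbr3 and 0.39 for Tgfbr2. Tgfb3 passed the threshold without TMA1, with the replicate block and with array quality weights, Tgfbr3 with the last 2 of these and Tgfb2 with the weights alone. Beside Tgfb1, the other gene lower at an unadjusted p under 0.05 was Smad2, also named after its values were seen. Smad2 differed by -0.55 (limma adjusted p = 0.155), with all TMA arrays below all TDA arrays.

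Genes of fibronectin receptors were on the array. Of 7 tested fibronectin receptor and matrix partner genes, 1 rose and 0 fell (median 0.14), against 3.42% of all tested genes called. Itga3, an integrin subunit best known as a laminin receptor, read 11.73, 12.38 and 12.24 on TMA1, TMA2 and TMA3, against 10.90, 10.74 and 10.86 on TDA1, TDA2 and TDA3. The TDA arrays lay close together and below all TMA arrays, and Itga3 rose by 1.28 ± 0.22 (log2, standard error, limma adjusted p = 0.0132). Itga5, the classical fibronectin receptor subunit, differed by -0.01, with a sign that changed between choices, and its partner Itgb1 by 0.08. Dimmer probes differed by 0.21 for Itga5 and 0.19 for Itgb1. The Itga3 call was lost without TMA2, TMA3 or TDA1 and with median scaling.

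Of 7 tested genes for other intermediate filaments and their linkers, 1 fell and 0 rose (median -0.23), against 3.42% of all tested genes called. Lmnb1, the gene of the nuclear lamina protein lamin B1, read 7.93, 7.32 and 7.85 on the TMA arrays, against 9.28, 8.69 and 8.49 on the TDA arrays. The groups did not overlap, and Lmnb1 fell by 1.12 on the log2 scale (standard error 0.25, limma adjusted p = 0.0399), with a dimmer probe at -0.26 and a size of -0.74 in the authors' table. Nes, which encodes nestin, an intermediate filament protein of progenitor cells that assembles with vimentin, differed by 0.00, also with a sign that changed between choices. A dimmer Nes probe differed by -0.33. The Lmnb1 call was lost without TMA2, TMA3, TDA1 or TDA3, without background correction, with median scaling and in the authors' table.

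**Figure D4:**
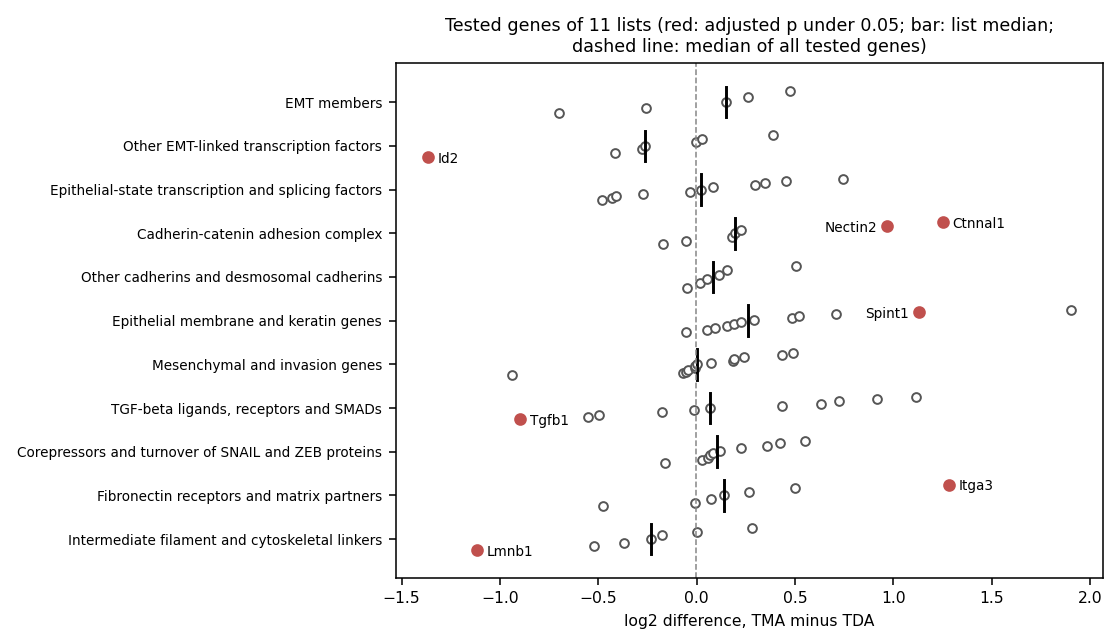
Log2 differences (horizontal axis, TMA minus TDA) of the tested genes of 11 lists, with called genes in red and named, list medians as black bars and the median of all tested genes as a dashed line. None of the 5 tested EMT members is red, and the 7 called genes are Id2, Nectin2, Ctnnal1, Spint1, Tgfb1, Itga3 and Lmnb1.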

How the data were processed

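Per the labels' protocols, Trizol was used to extract total RNA of 6 samples and Illumina's standard procedure to label it. Of the deposited tables, one gives the intensity of each probe on each array before normalization, with lowest values from 147.5 to 174.5, so background had not been taken off. The other deposited table gives log2 values after the authors' own normalization, whose method is not given in the sources used here; their ranks followed the intensities of the same array (rank correlation above 0.999), and array medians were 8.16 or 8.17. The scanner software was not stated either.

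Signals were corrected with normexp and an offset of 50, quantile-normalized and converted to log2 in limma 3.58.1 under R 4.3.3. Such an offset tends to shrink differences of dim probes. Probes were named from the platform annotation: 23846 had 1 symbol, 0 had several and 1851 were unnamed here. Probes above the median mean log2 value of 7.01 were tested with lmFit and eBayes, two-sided, TMA minus TDA, with Benjamini-Hochberg adjustment over all 12848 and a threshold of 0.05; a second fit took all 25697. Residual degrees of freedom were 4. The procedure was also run on simulated data with large changes planted only in bright probes. That run does not show how well small differences of dimmer probes are found. In lists, each gene counted once, by its brightest probe. From each list, up to 3 genes past the threshold with the largest differences were named, or, where none did, the 2 with the lowest p, and for each tested member the 3 genes with the highest r over the arrays; other genes were named after their values were seen. The members and lists were chosen with earlier results of these data known. The number of arrays limits the precision. Promoter sequences are RefSeq's. Figures were drawn with matplotlib 3.10.9. The alternatives are given in the closing section.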

Additional observations from a re-analysis of the deposited data

How the results depend on the processing

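The 16 alternatives changed the background step (none, or an offset of 16), the scaling (cyclic loess or medians), the filter (none, or the 75th percentile), the variance model (array quality weights, a replicate block, or a robust prior with a trend) or the input (the authors' table, or each array left out). Limma called 0 member probes under each of them, with between 0 and 3 at unadjusted p under 0.05. Of 90 values for the 6 tested member probes, 89 kept their direction and side of the threshold, and Zeb2 probe ILMN_2419650 reversed to 0.0873 without TMA3, within a range from -0.21 to 0.0873 with 1 array left out. For the 7 dim probes, 95 of 98 values moved by less than the spread between replicates, a rule that does not count sign. Cdh2 was positive under 4 choices and negative under 10, and Cdh3 probe ILMN_2444594 positive under 11 and negative under 3. Cdh3 probe ILMN_1222853, Zeb1 and Snai1 probe ILMN_1241355 each changed sign under 1 choice. The count of all called probes, 387, was 129 with median scaling, 198 without background correction, 135 from the authors' values, 232 with the stricter filter and 1906 with array quality weights, and ranged from 3 to 682 with 1 array left out, the lowest without TMA3 and the highest without TMA1. It was 21 without TMA2, 8 without TDA1, 658 without TDA2 and 112 without TDA3. The cause of these shifts was not tested.

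With the replicate number as a block, limma called 518 probes and 0 member probes. Deviations of same-numbered arrays correlated at r = 0.126, 0.0133 and 0.0269 across probes for numbers 1, 2 and 3, and TMA2 correlated best with TDA3, so the numbers were not taken to pair the samples. The checks on genes of the lists were added after seeing the data. Among these genes, Itga5, at -0.01, reversed to 0.00883 with median scaling, 0.0201 with cyclic loess, 0.00635 in the authors' table and 0.0373 with array quality weights, and lay between -0.12 and 0.0670 with 1 array left out. Nes, at 0.00, reversed to -0.0160 with median scaling and -0.0261 in the authors' table, and lay between -0.0718 and 0.0966 with 1 array left out.

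No detection p-values were used, so how far the 7 dim probes lay above background is unknown. The offset tends to shrink differences of dim probes, though not of each one. Fn1 and Snai2 were not analysed here.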
